A study of Mus musculus with 2 samples.

Results

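The tumour necrosis factor (TNF) superfamily and its receptors were read in cells of mouse salivary glands whose ducts had been clipped or left unclipped. Members were the genes whose symbols belong to the families Tnfsf (ligands) and Tnfrsf (receptors) or carry older names such as Tnf, Lta, Ltb, Ltbr, Fas, Fasl, Cd40, Cd40lg, Cd27, Cd70 and Eda. This rule found 42 of the 20140 genes measured, comprising 18 ligands, 23 receptors and 1 antisense transcript, Tnfsf13os. No row carried the symbols Cd30 or Edar; CD30 is among the members as Tnfrsf8, and Edar is not analysed here. The rule used names and no expression value, but it was chosen with earlier results of these data known.

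TNF superfamily ligands are trimeric proteins that sit in the cell membrane or are cut from it, and they act by clustering receptors on a neighbouring cell. Receptors with a cytoplasmic death domain, such as Fas and Tnfrsf1a, can start apoptosis, while the others mostly recruit TRAF adaptors and turn on NF-kB. In stroma and immune tissue the family is known for lymphotoxin signals that organise lymphoid tissue, for costimulation of T cells and natural killer (NK) cells, and for survival signals to B cells.

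Both libraries came from female C57BL6/J mice aged 14 weeks, and each was prepared from 2 submandibular and sublingual glands. In the ligated library a metal clip had closed the main ducts for 14 days. In the mock library the ducts had been exposed without a clip, and the glands were taken after the same 14 days. Cells carrying EpCAM (epithelial) or Ter119 (red cell lineage) and dead cells had been removed from both. With 1 library per condition there is no spread between replicates to set a difference against. All differences below are therefore values without a test, and they hold for these 2 libraries.

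Levels are the authors' cluster means, in UMIs (unique molecular identifiers, 1 per captured transcript) of a gene per 10000 UMIs of a cell, averaged over the cells of a cluster. They carry no correction for transcript length, and how well a gene's transcripts were captured was not measured, so comparisons between genes refer to captured transcripts. The ligated library held 11406 cells and the mock library 4199, and among the UMI totals that could be recovered the median was 6835 (ligated) and 6572 (mock). From marker genes the 12 clusters were called endothelial-like (clusters 0 and 4), NK-like (1), T cell-like (2), fibroblast-like (3), macrophage-like (5), mural-like, meaning pericytes and vascular smooth muscle (6), ductal-like (7), Schwann-like (9) and erythroid-like (10), while clusters 8 and 11 mixed the markers of several types and stayed unnamed. Cluster 10 also carried 8 of 10 endothelial and 6 of 9 macrophage markers at 0.5 or more, and cluster 2 also carried 7 of 8 NK markers. Endothelial markers reached 0.5 in other clusters too, for example 8 of 10 in cluster 6, 7 of 10 in cluster 7 and 6 of 10 in cluster 5. Cluster 6 also carried 4 of 9 fibroblast markers and cluster 5 also carried 4 of 8 NK markers. Cluster 4 also carried 4 of 6 lymphatic endothelial markers, so its means can join more than 1 kind of endothelial cell. Cells of cluster 7 were shallow, with median recovered totals of 1018 UMIs (ligated) and 1082 UMIs (mock). The cells of a cluster share 1 library per condition and are not replicates.

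Lymphotoxin beta (Ltb), its partner Lta and Tnf lie side by side in 10913 bases at chr17:35194439-35205351 (GRCm38), with Ltb on the plus strand and Tnf and Lta on the minus strand. The stretches upstream of these neighbours are shown because these genes differed in level within the same T cell-like cells, and that of Fas is shown because Fas was the member called lower after ligation. Each is written 5′ to 3′ on the strand of its gene, from the RefSeq promoter table on GRCm38.p6, and ends before the start of the gene in the GENCODE annotation. Ltb is chr17:35194257-35194438 on the plus strand, Tnf is chr17:35202008-35202257 and Lta is chr17:35205352-35205601 on the minus strand, and Fas is chr19:34290409-34290658 on the plus strand. Capitals mark a match to a kappaB-like motif, GGG then any 2 bases then TTTCC, on either strand, the kind of site that NF-kB binds.
Ltb: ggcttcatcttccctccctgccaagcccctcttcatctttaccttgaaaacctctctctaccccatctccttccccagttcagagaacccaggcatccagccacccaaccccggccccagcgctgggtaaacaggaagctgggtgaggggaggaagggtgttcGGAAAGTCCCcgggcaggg
Tnf: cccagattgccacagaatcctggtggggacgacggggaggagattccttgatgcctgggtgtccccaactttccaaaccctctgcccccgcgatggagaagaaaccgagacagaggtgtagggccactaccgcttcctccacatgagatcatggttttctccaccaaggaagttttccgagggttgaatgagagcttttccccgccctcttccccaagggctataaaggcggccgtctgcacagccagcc
Lta: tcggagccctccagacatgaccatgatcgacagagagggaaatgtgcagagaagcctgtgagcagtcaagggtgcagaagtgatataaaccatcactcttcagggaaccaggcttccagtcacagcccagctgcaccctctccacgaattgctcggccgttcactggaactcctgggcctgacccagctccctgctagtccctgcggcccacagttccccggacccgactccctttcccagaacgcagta
Fas: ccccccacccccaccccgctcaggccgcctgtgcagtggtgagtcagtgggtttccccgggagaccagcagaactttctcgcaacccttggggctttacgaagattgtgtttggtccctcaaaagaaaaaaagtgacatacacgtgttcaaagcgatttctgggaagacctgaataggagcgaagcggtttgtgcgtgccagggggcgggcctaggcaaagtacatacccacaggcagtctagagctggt
The Ltb stretch held 1 match, on the reverse strand, which began 19 bases before the annotated start of the gene. The other 3 stretches held none, which says only that these letters are not in these windows. Among 32851 mouse promoters of 250 bases, 464 (1.41%) held the motif, and among the 35 promoters listed for 31 of the 42 members, 3 did, those of Ltb, Tnfrsf9 and Tnfrsf25. An interferon-type motif, TTTC then any 2 bases then TTTC, searched the same way, was in 2.98% of all promoters and in 3 of the 35, those of Tnfrsf1b, Tnfrsf14 and Tnfsf13b. No member had a match to both motifs.

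With both libraries together, 15 members reached a level of 0.5 in at least 1 cluster, 6 of the 18 ligands and 9 of the 23 receptors. Over all genes this share was 33.6%, beside 33.3% of the ligands and 39.1% of the receptors. The highest level of another 8 ligands and 10 receptors lay between 0.1 and 0.5, and 4 ligands (Tnfsf4, Tnfsf15, Tnfsf18 and Cd70), 4 receptors (Tnfrsf8, Tnfrsf11b, Tnfrsf13c and Tnfrsf14) and Tnfsf13os stayed below 0.1 in every cluster. The ligands with the highest levels were Ltb in lymphoid cells, Tnfsf10 in endothelial-like cells and Tnfsf12 in mural-like and fibroblast-like cells, and the receptor with the highest level was Tnfrsf1a.

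**Figure D1:**
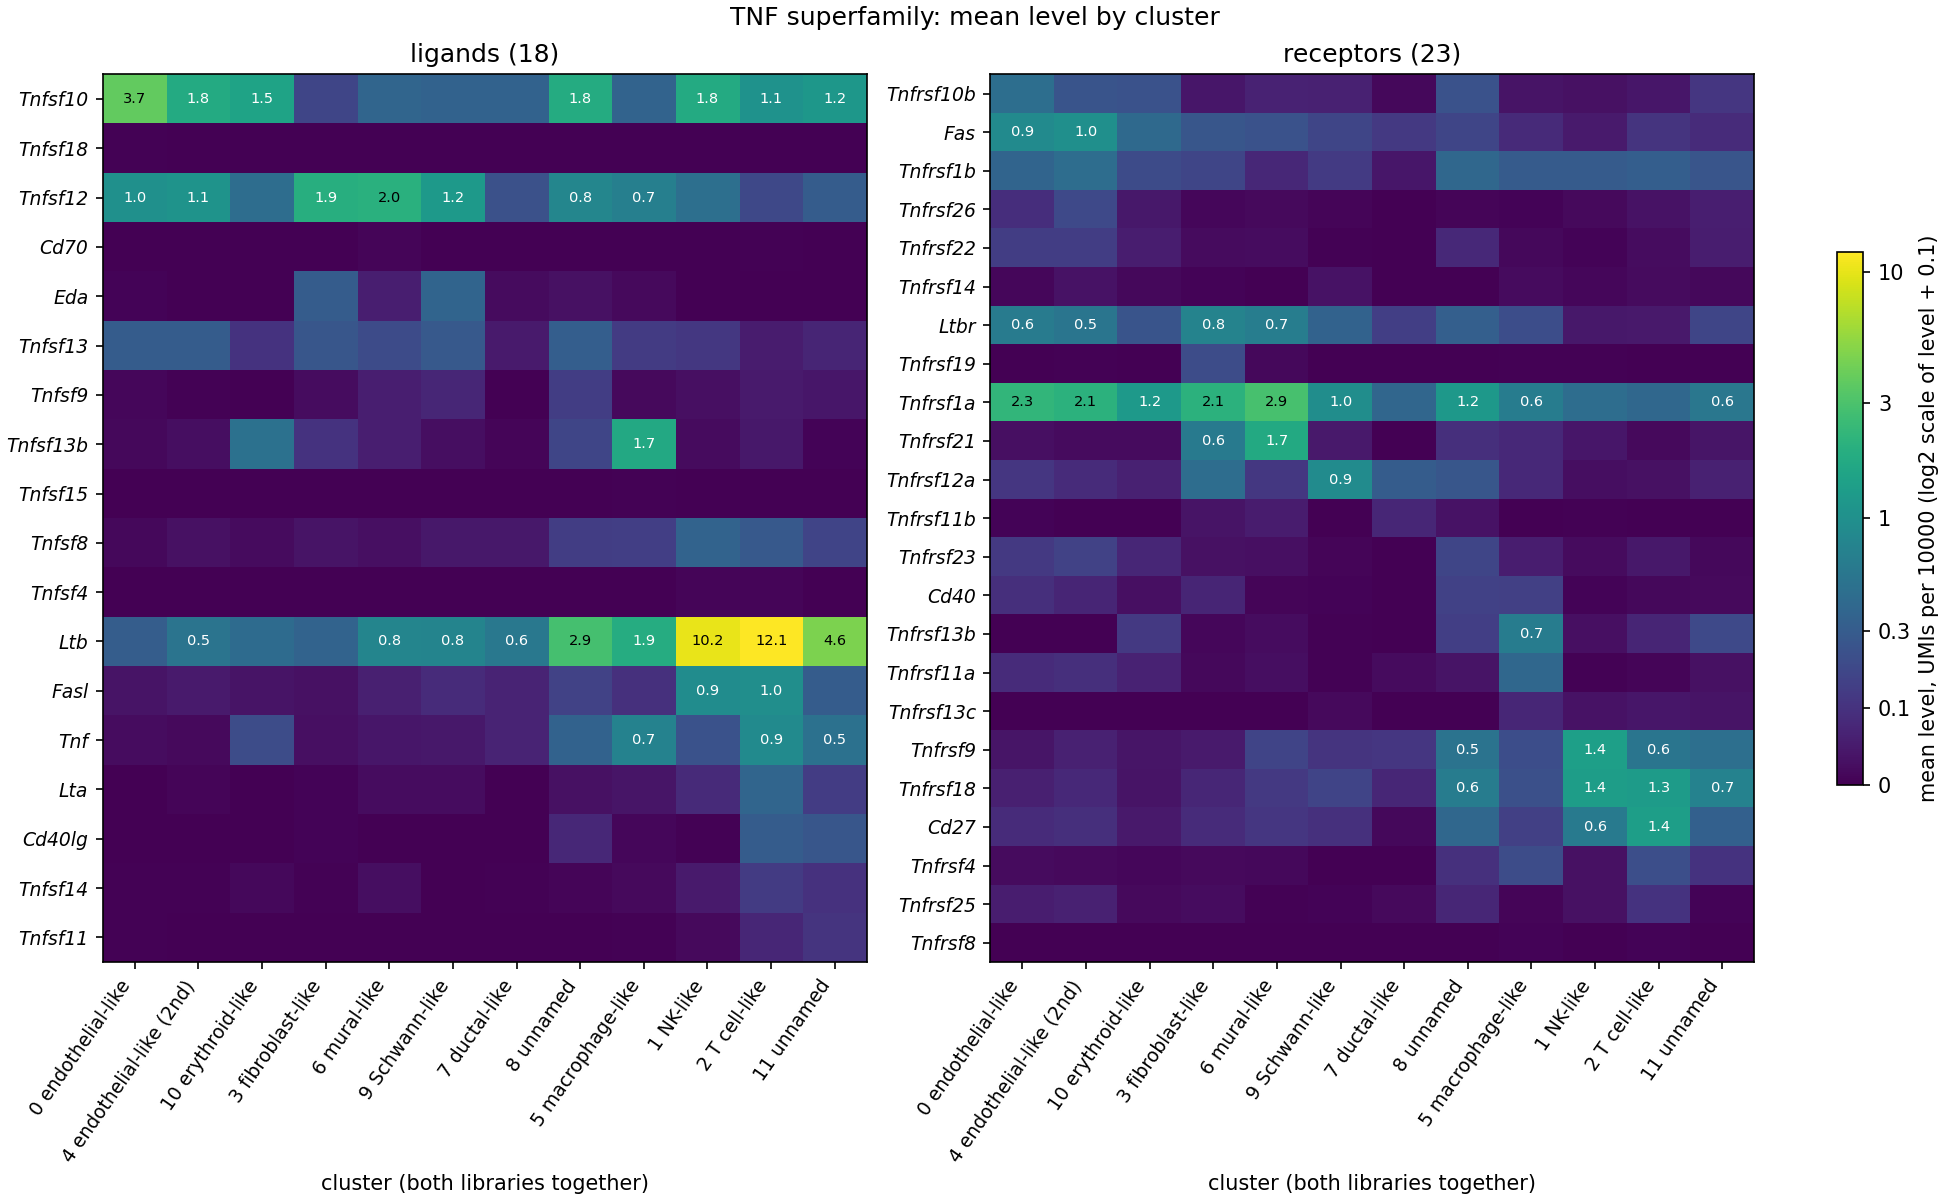
Mean level of each ligand (left) and receptor (right) in the 12 clusters with both libraries together, in UMIs per 10000, coloured on a log2 scale of the level plus 0.1; levels of 0.5 or more are printed. Ltb reached 12.1 in T cell-like cluster 2 and 10.2 in NK-like cluster 1, and Tnfrsf1a was at 0.5 or more in 9 of the 12 clusters.

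Among the ligands, Ltb, which joins Lta in the membrane-bound lymphotoxin trimer that engages Ltbr, stood at 12.1 in T cell-like cluster 2 and 10.2 in NK-like cluster 1. Unnamed cluster 11 followed with 4.59 and macrophage-like cluster 5 had 1.85. Its locus neighbours were lower in the same T cell-like cells, with Tnf, the founding cytokine of the family, at 0.897 and Lta at 0.381. Tnf was nearly as high in macrophage-like cluster 5, at 0.733. Fasl, the death ligand of cytotoxic lymphocytes, was at 0.969 in cluster 2 and 0.931 in cluster 1, and no other cluster was above 0.301. Tnfsf8 (CD30 ligand), Cd40lg and Tnfsf14 (LIGHT) were also highest in lymphoid clusters, at 0.362 in cluster 1, 0.302 in cluster 2 and 0.128 in cluster 2.

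Tnfsf10 (TRAIL), whose death-domain receptor in mouse is Tnfrsf10b, was highest in endothelial-like cluster 0, at 3.73. Unnamed cluster 8 (1.83), NK-like cluster 1 (1.78) and endothelial-like cluster 4 (1.77) followed, and it reached 0.5 in 7 clusters. Tnfsf12 (TWEAK), the ligand of Tnfrsf12a, had its highest levels in mural-like cluster 6 (2.00) and fibroblast-like cluster 3 (1.91), and these neighbours in the order were only 1.05-fold apart. Tnfsf13b (BAFF), a survival factor for B cells, was highest in macrophage-like cluster 5 at 1.73, which was 3.48 times the level of the next cluster. Eda, a ligand that shapes ectodermal organs including glands, was found in Schwann-like cluster 9 at 0.367 and fibroblast-like cluster 3 at 0.301.

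Several receptors were highest in stromal clusters and others in lymphoid clusters. Tnfrsf1b, the second TNF receptor, was spread over both. It was at 0.454 and 0.374 in endothelial-like clusters 4 and 0, and at 0.324 and 0.295 in clusters 2 and 1. In fibroblast-like cluster 3 it was at 0.171 and in mural-like cluster 6 at 0.0721. Tnfrsf1a, the death-domain receptor for Tnf and Lta, was at 2.88 in mural-like cluster 6, 2.28 in endothelial-like cluster 0 and 2.09 in fibroblast-like cluster 3, against 0.451 in NK-like cluster 1 and 0.397 in T cell-like cluster 2. Ltbr, the receptor for lymphotoxin and Tnfsf14, was at 0.751 in cluster 3, 0.670 in cluster 6 and 0.640 in cluster 0, and at only 0.0371 and 0.0396 in clusters 1 and 2, where Ltb was highest. Fas was highest in the endothelial-like clusters 4 (1.00) and 0 (0.899), and low in NK-like and T cell-like cells, at 0.0425 and 0.105, where its ligand was highest. Lymphoid clusters thus held the highest levels of Ltb and Fasl, and stromal clusters those of their receptors.

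Tnfrsf21 (death receptor 6) was at 1.74 in the mural-like and 0.604 in the fibroblast-like cluster, and at 0.0900 or less elsewhere. Tnfrsf12a (Fn14), the TWEAK receptor, was at 0.919 in Schwann-like cluster 9 and 0.459 in fibroblast-like cluster 3. Tnfrsf19 (TROY), an orphan receptor of epithelial and stromal progenitors, was low, at 0.204 in cluster 3, but this was 18.7 times its level in any other cluster. Tnfrsf13b (TACI), a receptor for BAFF and APRIL that is best known from B cells, was at 0.652 in macrophage-like cluster 5. That cluster also held 2 of the 5 B cell markers at 0.5 or more, with a summed level of 1.54 ligated against 3.06 mock, and the part of B cells in the Tnfrsf13b level was not tested.

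The costimulatory receptors Tnfrsf9, Tnfrsf18 and Cd27 were highest in the lymphoid clusters, and their ligands did not reach 0.5 in any cluster. Tnfrsf9 (4-1BB) was at 1.41 in NK-like cluster 1, and its ligand Tnfsf9 did not exceed 0.139. Tnfrsf18 (GITR) was at 1.36 in cluster 1 and 1.28 in cluster 2, and Tnfsf18 did not exceed 0.0023 in any cluster. Cd27 was at 1.38 in cluster 2 and its ligand Cd70 did not exceed 0.00775, while Tnfrsf4 (OX40) was at 0.215 in cluster 2 and 0.206 in macrophage-like cluster 5, and Tnfsf4 did not exceed 0.00678. The reverse held for Tnfsf8, at 0.362 in cluster 1, whose receptor Tnfrsf8 did not exceed 0.00559, and for BAFF, whose main B cell receptor Tnfrsf13c did not exceed 0.0674.

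**Figure D2:**
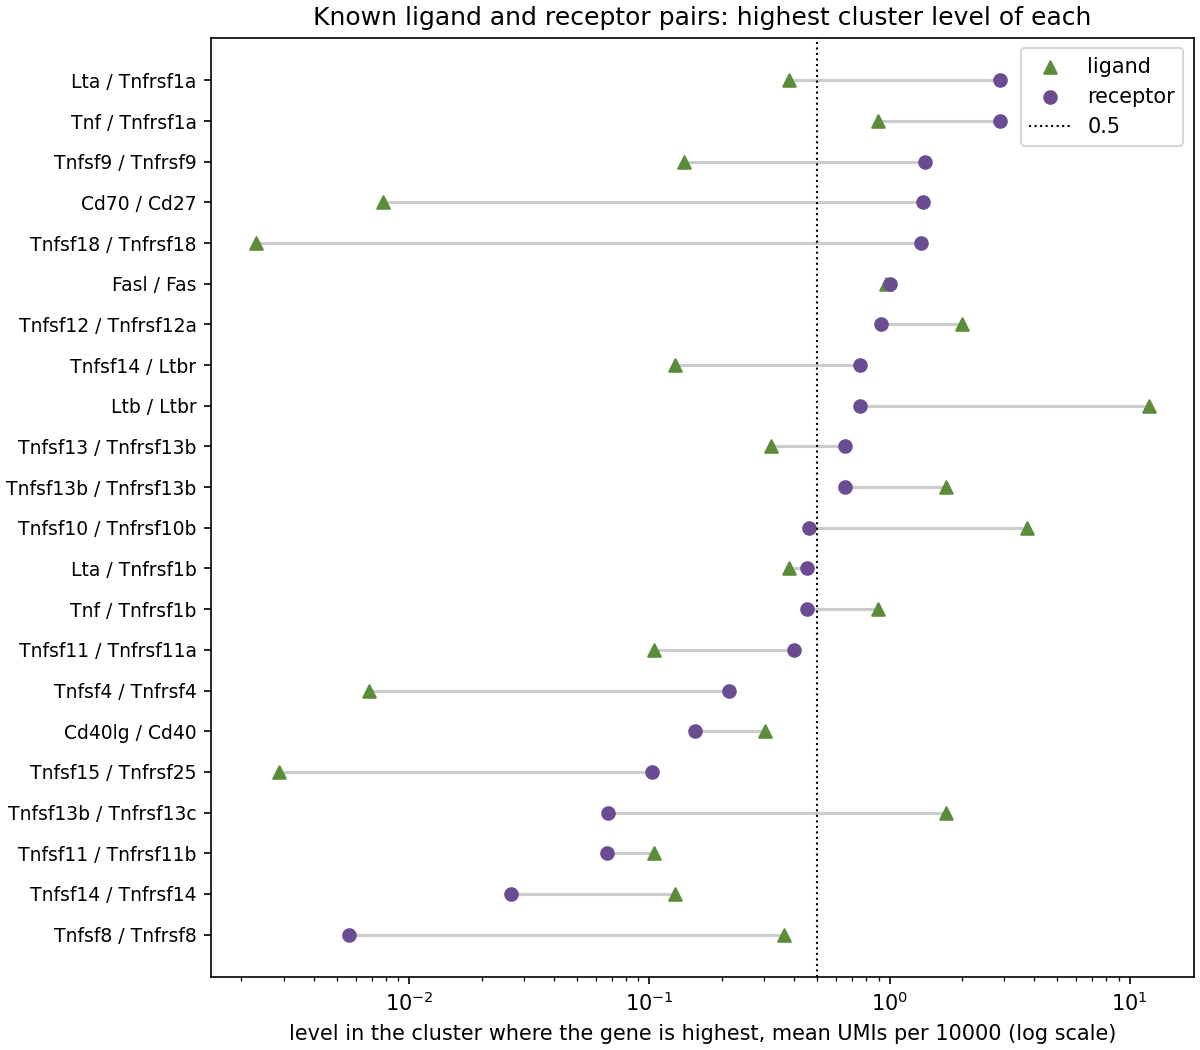
Highest cluster level of the ligand (triangle) and the receptor (circle) in each of 22 known pairs, on a log axis of UMIs per 10000 with both libraries together; the dotted line is 0.5. Pairs such as Fasl with Fas (0.969 and 1.00) met at similar levels, whereas Tnfsf18, Cd70 and Tnfsf4 lay far below their receptors.

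Ligated and mock values were compared in the 9 clusters that held 50 cells or more from both conditions (0 to 7 and 10). A member was called higher or lower where its higher value was at least 0.5 and log2((ligated + 0.1)/(mock + 0.1)) was 1 or more or -1 or less, a scale that understates changes of low genes. Of 378 pairs of a member and a cluster, 53 had a higher value of at least 0.5, and 13 of these were called, 11 higher and 2 lower after ligation, in 8 genes. Over all genes 1.89% of pairs were called, 1.17% higher and 0.711% lower, and among pairs reaching 0.5 the share was 11.1%, beside 24.5% for the members. Ligands gave 9 higher and 0 lower calls in 28 pairs reaching 0.5, and receptors 2 higher and 2 lower in 25. The 9 ligand calls include 4 of Ltb in clusters of other cell types, set beside a background below. They also include 1 of Tnfsf13, from which no difference is drawn below, and that pair is counted in every member total of this paragraph. Among the 53 pairs the difference was above 0 in 41, with a median of 0.36, beside a median of 0.02 and 51.7% above 0 over all genes reaching 0.5. The pairs are not separate genes, since Ltb, Tnfsf12 and Tnfrsf1a gave 7 each and Tnfsf10 gave 6. These counts therefore do not describe a shift shared by the family. Of the 13 calls, 7 (6 higher and 1 lower) were in clusters 7 and 10, where 26.5% and 25.2% of all genes reaching 0.5 were called. In cluster 10 the median difference of all genes reaching 0.5 was 0.56, with 83.3% of them above 0. After subtraction of a background described beside Ltb, 5 calls remained, 3 higher, with Tnfsf13 among them, and 2 lower. The share of all genes called after subtraction was not computed, so these 5 have no comparison.

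**Figure D3:**
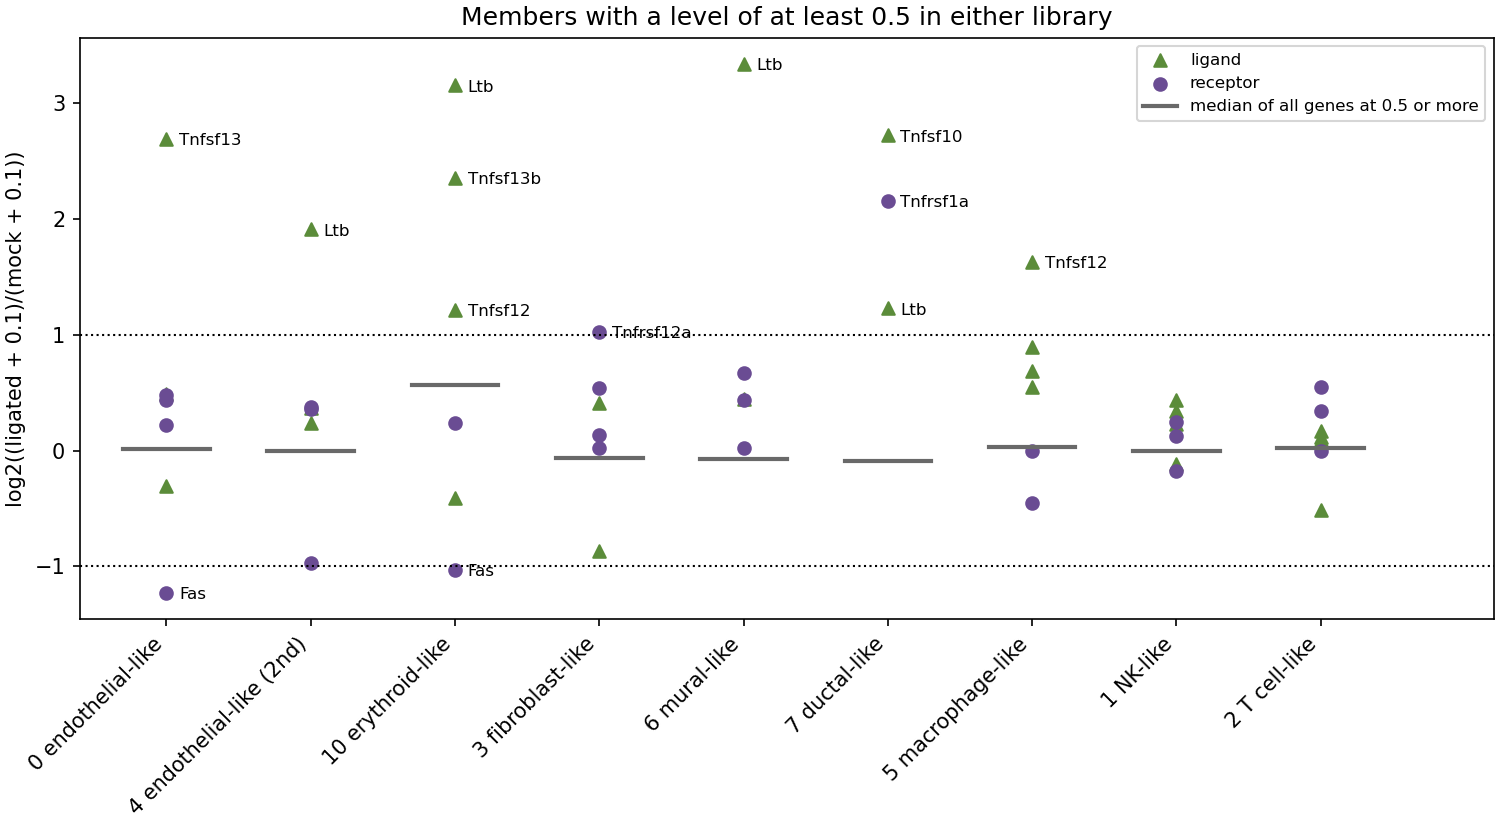
Difference between the libraries, log2((ligated + 0.1)/(mock + 0.1)), of each member with a level of at least 0.5 in either library, by compared cluster; triangles are ligands, circles receptors, bars the median of all genes at 0.5 or more, and dotted lines the size rule of 1. Ligand points lie mostly above 0, and the lowest points are Fas in clusters 0, 4 and 10.

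Fas, the death receptor for Fasl, was lower after ligation in endothelial-like cells. In cluster 0 (2948 ligated and 2363 mock cells) its level was 0.525 ligated against 1.37 mock, a 2.60-fold lower level and a difference of -1.23, in a cluster where 1.26% of all genes were called and 0.511% were called lower. In endothelial-like cluster 4 it was 0.756 against 1.58, a difference of -0.97, just short of the rule. In erythroid-like cluster 10, whose 60 ligated and 85 mock cells also carried endothelial markers, it was 0.219 against 0.554, a difference of -1.03 where 0.318% of all genes were called lower. Fas was thus at less than 0.5 times the mock level in clusters 0, 4 and 10, whose summed endothelial markers are given below.

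Elsewhere Fas was low in both libraries. In NK-like, T cell-like and macrophage-like cells it was also below the mock value, but no value exceeded 0.137. It was 0.275 against 0.189 in cluster 3 and 0.241 against 0.224 in cluster 6, and in the ductal-like cluster it was 0.209 in the ligated library and listed at 0 in the mock library. Of the 10 endothelial markers, 5 were higher after ligation in cluster 0, with a summed level of 155 against 192. In cluster 4, 1 of 10 was higher, with 102 against 115, and in cluster 10, 5 of 10 were, with 72.9 against 85.9. The part of endothelial content in the Fas difference was not tested, and fewer cells with Fas or less Fas per cell cannot be told apart in a cluster mean. Over the whole library Fas was 0.251 against 0.898, and with the ligated clusters weighted by the mock library's cell mix it was 0.386, a difference of -1.04. It was the only member past the rule at the mock mix, where 0.988% of all genes were, and with every cluster weighted equally the difference was -0.46 and no member was past the rule, as 1% of all genes were.

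**Figure D4:**
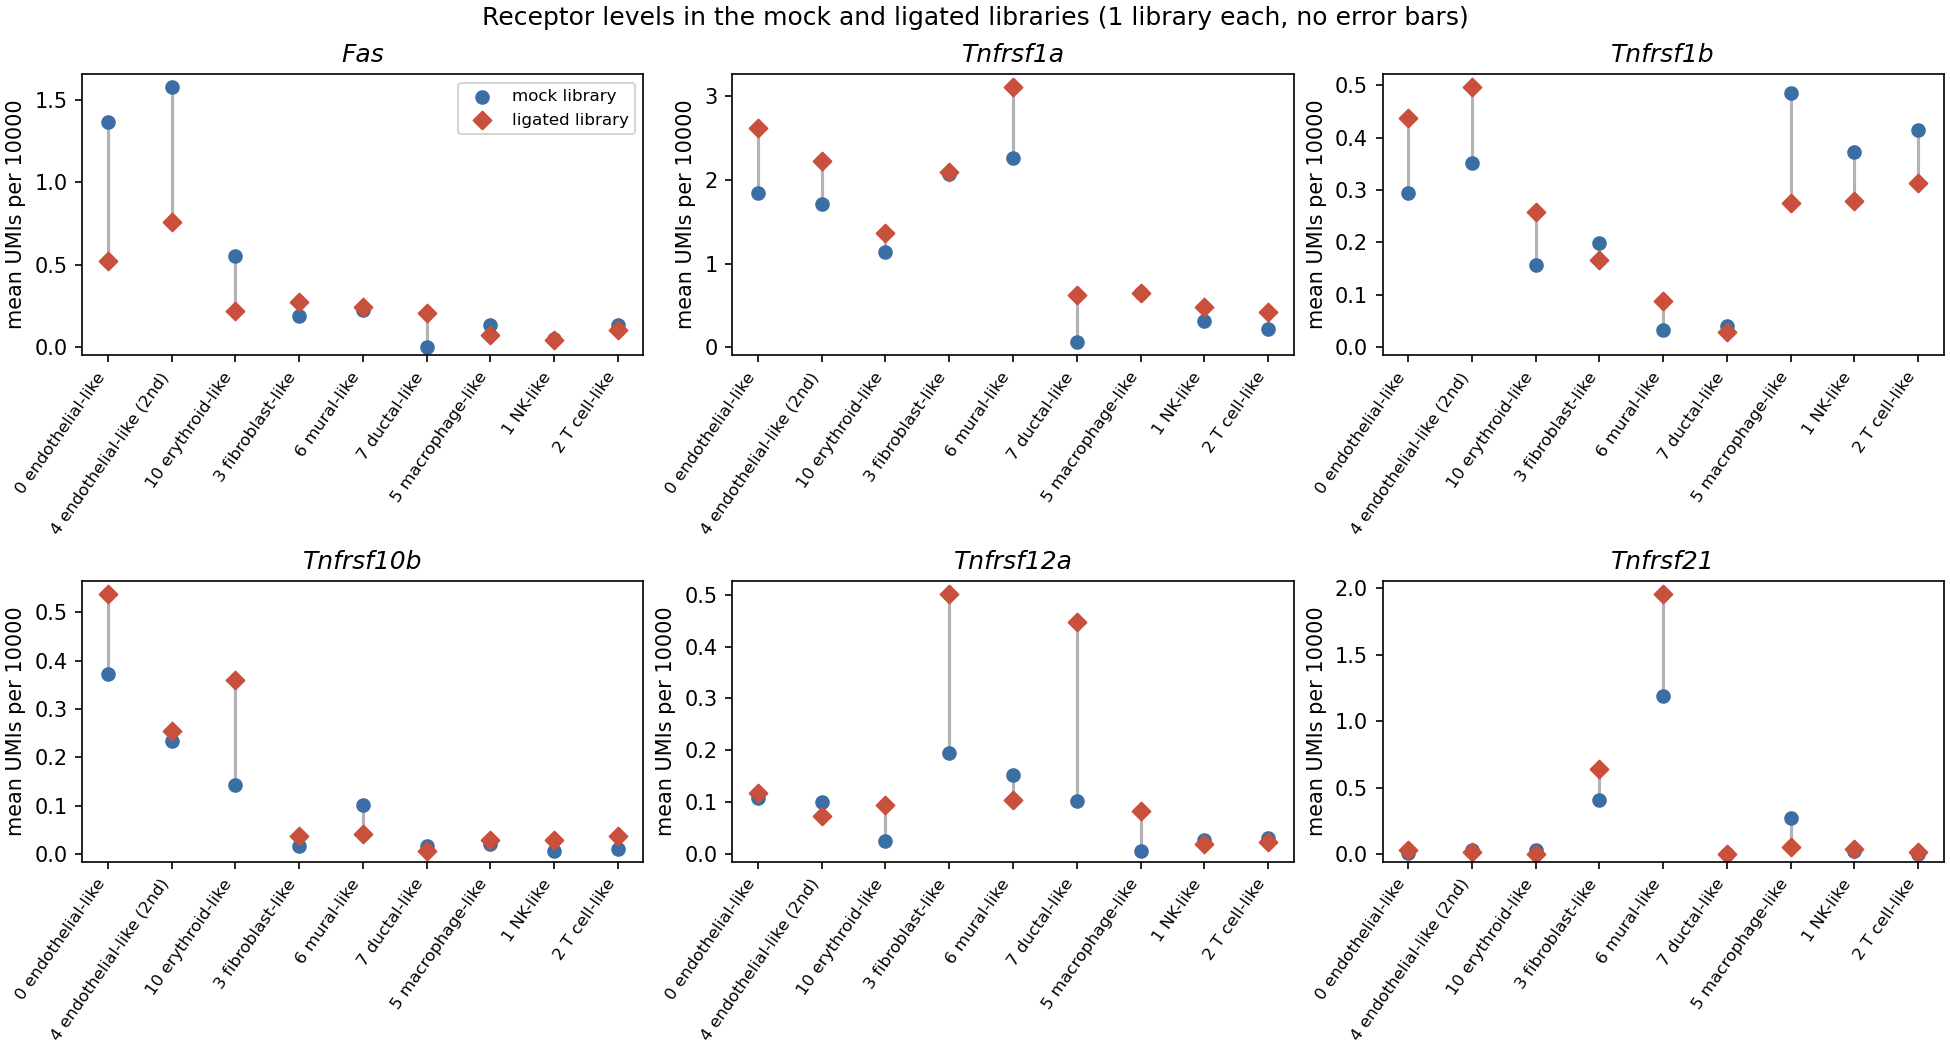
Levels of 6 receptors in the mock (circles) and ligated (diamonds) libraries in the 9 compared clusters, in mean UMIs per 10000; each point is 1 library, so there are no error bars. Fas lies lower in the ligated library in clusters 0, 4 and 10, Tnfrsf1a lies higher or level in every cluster, Tnfrsf21 has its widest gap in mural-like cells, and Tnfrsf12a lies higher in the ligated library in the ductal-like and fibroblast-like clusters.

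Tnfrsf12a was higher after ligation in fibroblast-like cluster 3, at 0.502 against 0.196, a difference of 1.03 in a cluster where 0.834% of all genes were called higher. Its value lies at the edge of the rule on both criteria, and the call ended after background subtraction, where the difference was 1.01 and the level just under 0.5. In Schwann-like cluster 9 it was 0.977 in 271 ligated cells and listed at 0 in 17 mock cells, too few for a comparison. In ductal-like cluster 7 it was 0.447 against 0.103, below the level the rule needs.

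Among other receptors found in stromal cells, though not only there, Tnfrsf1a passed the rule in 1 cluster and Tnfrsf21, Tnfrsf10b, Tnfrsf1b and Ltbr in none. Tnfrsf1a was 2.62 against 1.85 in cluster 0, 3.11 against 2.27 in cluster 6 and 2.10 against 2.07 in cluster 3, and it was above the mock value in 8 of the 9 compared clusters, the exception being cluster 5 at 0.647 against 0.651. Its 1 call was in ductal-like cluster 7, at 0.619 against 0.0615, where the mock value corresponds to about 1.34 UMIs in all at the median depth. Tnfrsf21 was 1.96 against 1.19 among mural-like cells and 0.636 against 0.406 among fibroblast-like cells. Tnfrsf10b, the death-domain receptor for TRAIL, was 0.538 against 0.371 in endothelial-like cluster 0. Tnfrsf1b, the second TNF receptor, was 0.438 against 0.294 there but 0.275 against 0.485 in macrophage-like cluster 5. Ltbr differed little, with 0.689 against 0.579 in cluster 0, 0.761 against 0.686 in cluster 3 and 0.674 against 0.661 in cluster 6.

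In the lymphoid clusters no member passed the rule, in clusters where 0.655% (NK-like) and 0.785% (T cell-like) of all genes did. Ltb was 10.5 against 8.29 in cluster 1 and 12.2 against 10.8 in cluster 2. Fasl was 0.916 against 1.00 in cluster 1 and 0.975 against 0.909 in cluster 2, and Tnfrsf9 was 1.45 against 1.21 and 0.573 against 0.360. Tnf in cluster 2 was 0.856 against 1.27, while Lta beside it was 0.410 against 0.123, with differences of -0.52 and 1.19, and neither passed the rule, Lta being below the level it needs. The ligated whole-library level of Ltb, 5.07 against 1.89, was 2.64 at the mock cell mix, and that of Tnfrsf9, 0.562 against 0.222, was 0.318. With each library's own mix these 2 genes and Fas were past the rule, as were 2.37% of all genes, and cluster 1 held 29.4% of ligated and 16.2% of mock cells, cluster 2 12.2% and 3.69%.

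Ltb gave 4 of the 11 higher calls, all in clusters of other cell types. In mural-like cluster 6 it was 1.09 against 0.0173, in cluster 10 it was 1.02 against 0.026, in endothelial-like cluster 4 it was 0.719 against 0.118 and in ductal-like cluster 7 it was 0.804 against 0.286. The shares of all genes called higher there were 0.993%, 3.42%, 0.641% and 2.39%. Beside these, the NK marker list was higher in the ligated library for 8 of 8 genes in each of these clusters, with summed levels of 3.18 against 0.0665 in cluster 6, 2.65 against 0.0614 in cluster 10, 2.36 against 0.450 in cluster 4 and 2.95 against 0.437 in cluster 7. In cluster 6 the defining NK markers Ncr1, Klrb1c, Prf1 and Eomes were listed at 0 in the mock library, and 9 of 10 T cell markers were higher in the ligated library.

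A background level was estimated as the median share of the library mean at which markers of other cell types appear in a cluster. For Ltb in the ligated library this background was 1.16 in cluster 6, 0.882 in cluster 10, 0.563 in cluster 4 and 1.13 in cluster 7, so the measured 1.09 and 0.804 in clusters 6 and 7 lay below it and the 1.02 and 0.719 in clusters 10 and 4 above it. In the subtraction, values below the background were set to 0. The Ltb difference then went from 3.34 to 0.00 in cluster 6, from 1.91 to 0.83 in cluster 4 and from 1.23 to -1.41 in cluster 7. In cluster 6 the values of both libraries were set to 0, so 0.00 is no measured equality. In cluster 7 the ligated value was set to 0, so -1.41 is no measured reversal. In cluster 10 it went from 3.16 to 1.16, at a level too low for the rule. In mural-like cells of a smaller table, for a subset that the submitters labelled with pdgfr and gli1, Ltb was only 0.196 against 0.0218. In NK-like and T cell-like cells the background was 0.402 and 0.509 in the ligated library, far below the measured 10.5 and 12.2.

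**Figure D5:**
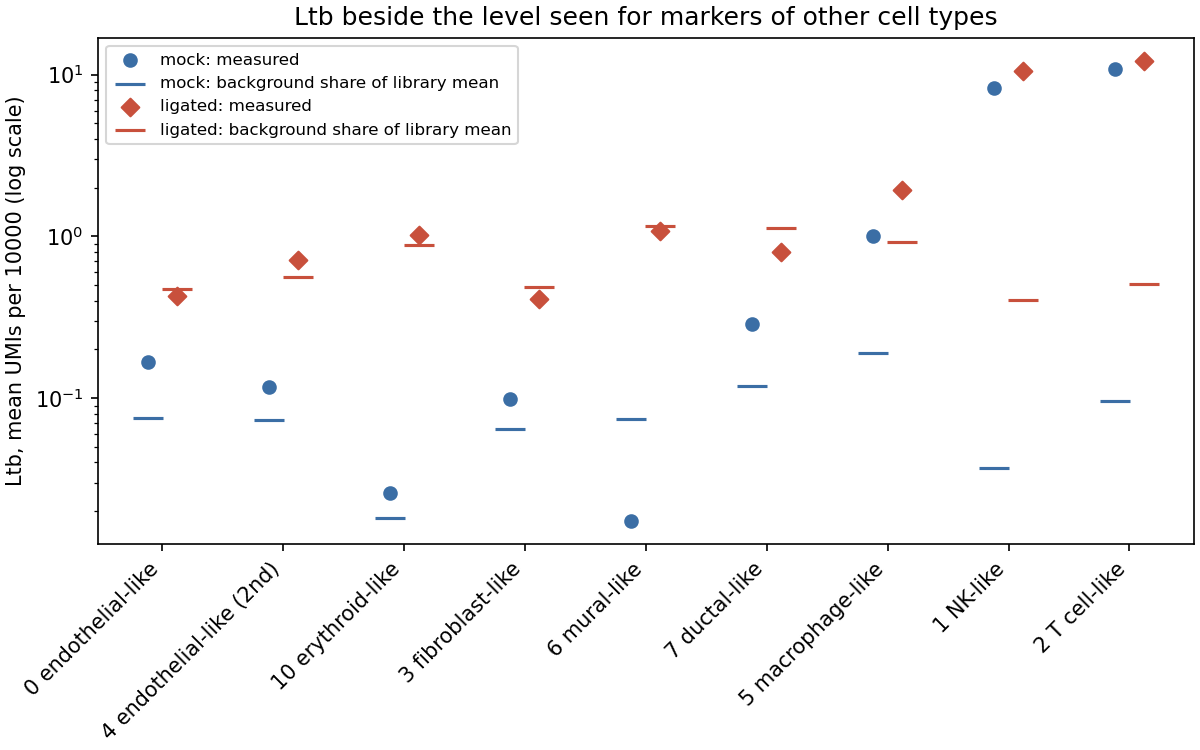
Ltb level on a log axis, in UMIs per 10000, in the mock (circles) and ligated (diamonds) libraries by compared cluster, with horizontal marks for the level at which markers of other cell types appear in that cluster. In the ligated library the non-lymphoid points lie close to their marks, for example 1.09 beside 1.16 in cluster 6, except macrophage-like cluster 5 with 1.95 beside 0.921, while clusters 1 and 2 lie far above theirs.

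Among the other ligands, Tnfsf12 was called higher in macrophage-like cluster 5, at 0.760 in 680 ligated cells against 0.178 in 77 mock cells, a difference of 1.63 where 0.655% of all genes were called higher, and it was 1.75 after subtraction of the background. It was also called in cluster 10, at 0.732 against 0.259, a difference of 1.21 that was below the rule after centring on all genes (0.83) and after background subtraction (0.94). It was above the mock value in 8 of the 9 compared clusters, with T cell-like cluster 2 the exception at 0.179 against 0.201. In its highest clusters the differences were below the rule, at 2.17 against 1.56 in cluster 6 and 1.99 against 1.47 in cluster 3. Of its exon bases, 48.3% are shared on the same strand with the read-through transcript Tnfsfm13, so both its level and its differences between the libraries are uncertain.

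Tnfsf13 (APRIL), a ligand of TACI, was listed at 0 in all 12 clusters of the mock library and was above 0 in all 12 of the ligated library, from 0.0486 in cluster 2 to 0.547 in endothelial-like cluster 0, where it was counted as a call. The read-through Tnfsfm13, which shares 60.0% of the exon bases of Tnfsf13 on the same strand, showed the reverse, listed at 0 in every ligated cluster and at up to 0.0369 in the mock library. The pair lies on chromosome 11 with Tnfsf12, and whether reads were assigned to these overlapping genes in the same way in both libraries was not tested, so no difference in Tnfsf13 is drawn. Without genes listed at 0 throughout 1 library, 12 of the 13 calls remained.

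Tnfsf13b was 1.79 against 1.19 in its main source, macrophage-like cluster 5, a difference of 0.55. Its call was in cluster 10, at 1.03 against 0.12, where macrophage markers were also higher, at a summed 43.3 against 20.1 with 8 of 9 higher. The part of macrophage RNA in that call was not tested. In cluster 5 its receptors were below the mock values without passing the rule, with Tnfrsf13b at 0.625 against 0.891 and Tnfrsf13c, the BAFF receptor, at 0.0509 against 0.213, beside the lower summed B cell markers given above. Tnfsf10 was 3.36 against 4.19 in endothelial-like cluster 0 and 1.86 against 1.56 in cluster 4. Its 1 call was in ductal-like cluster 7, at 0.601 against 0.00601, in a cluster where endothelial markers summed to 12.2 against 7.61. That mock value is too low to be read as a level, in 201 mock cells with a median recovered total of 1082 UMIs. The call ended after background subtraction, where the difference was 1.63 at a level too low for the rule. Eda in fibroblast-like cluster 3 was 0.260 against 0.556, a difference of -0.87, the lowest of any ligand reaching 0.5.

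The tables of the pdgfr and gli1 subset repeat cells of the same libraries, so they are no independent measurement. Only 1 of 126 pairs was called there, Tnfrsf12a in fibroblast-like subset cluster 0, at 0.550 against 0.210, beside 1.91% of pairs over all genes and 0.884% of genes called higher in that cluster. In endothelial-like subset cluster 3 Fas was 0.487 against 1.02, a difference of -0.94, while in fibroblast-like subset cluster 0 it was 0.262 against 0.161. In mural-like subset cluster 2 Tnfrsf21 was 2.75 against 1.42, Tnfrsf1a 3.65 against 2.29 and Tnfsf12 2.50 against 1.76. The mural-like and fibroblast-like levels of these 3 genes were thus above the mock values in both tables, without reaching the rule.

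The remaining members were named by locus and range. Tnfrsf22, Tnfrsf23 and Tnfrsf26, closely related decoy-type receptors at chr7:143607659-143685872 (GRCm38), were highest in endothelial-like cluster 4 or, for Tnfrsf23, cluster 8, at 0.140, 0.174 and 0.188 in the order Tnfrsf22, Tnfrsf23 and Tnfrsf26, and reads could be divided among them. Cd40, the receptor for Cd40lg, did not exceed 0.154, and Tnfrsf25 (DR3) did not exceed 0.103. Tnfrsf11a (RANK) was at 0.40 in macrophage-like cluster 5, while its ligand Tnfsf11 did not exceed 0.105 and the decoy Tnfrsf11b (osteoprotegerin) 0.0663. None of these was called in a compared cluster.

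The machinery downstream was read from 69 genes in 6 lists, 68 of which had rows. Of their 612 pairs with compared clusters, 153 reached 0.5 and 13 of these were called, 9 higher and 4 lower, which is 8.5% beside 11.1% over all genes. After background subtraction 15 were called, 6 higher and 9 lower, and the share over all genes was not computed for that setting. Cxcl10, a chemokine induced by NF-kB and interferons, gave 3 of the 9, at 0.564 against 0.0269 in cluster 0, 1.15 against 0.093 in cluster 3 and 0.785 against 0.0154 in cluster 7. The NF-kB targets together gave 6 calls among 42 pairs reaching 0.5, 3 higher and 3 lower, which is 14.3% beside 11.1% over all genes. Among the other 16 NF-kB target genes with rows, the survival gene Bcl2l1 was lower in both endothelial-like clusters, at 0.371 against 0.853 in cluster 0 and 0.505 against 1.68 in cluster 4. The adhesion receptor Vcam1 was lower in cluster 4, at 0.150 against 0.842. The shares of all genes called lower were 0.511% in cluster 0 and 0.546% in cluster 4.

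Adaptors and kinases gave 2 higher calls among 32 pairs reaching 0.5, Tank in cluster 7 and Ikbkb in cluster 10. NF-kB subunits and inhibitors gave 2 among 40, Rel and Nfkbiz in cluster 10, and death effectors and brakes 2 among 26, Cflar in cluster 7 and Diablo in cluster 10. The shedding enzyme Adam17, which releases Tnf from the membrane, was lower in cluster 4, at 0.367 against 1.00, where 0.546% of all genes were called lower. All 6 of the adaptor, subunit and death calls fell in clusters 7 and 10, where calls were frequent over all genes, and none was in clusters 0 to 6. Of superfamily receptors outside the naming rule, Ngfr was found in Schwann-like cluster 9 at 1.49 against 0.961, and Relt and Eda2r did not reach 0.5.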

How the data were processed

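Droplet single-cell RNA libraries from 1 ligated and 1 mock group were measured. Cell Ranger 6.0.1, Seurat and build mm10 are named in the submitters' processing notes; the annotation, strand setting, cell filters, doublet removal and clustering are not given in the sources used here. The authors deposited cluster means (another unit, neither counts nor CPM): every column sums to 10000, so each value is a linear mean share of a cell's UMIs. The tables cover 12 clusters of all cells and 5 of a subset, together and split by condition. Dates replacing 21 gene names were restored from row order, and 0 value columns were without a sample.

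The weights that join split and joint means gave each cluster's cell numbers. Genes seen in single cells gave UMI totals, a biased sample of 2151 ligated and 607 mock totals. In cluster 11, 61 totals were recovered for 59 ligated cells, so some are fractions of a cell's true total and the medians are approximate. Computations used Python 3.11.15, numpy 2.4.6 and pandas 2.3.3. The weights and the size rule were tested on simulated data, while the cell numbers, UMI totals and background subtraction were not. The size rule used a pseudocount of 0.1, a higher value of at least 0.5, a difference of at least 1 and 50 cells per library. Clusters were named from fixed marker lists. No count model was possible. All 42 members matched RefSeq symbols; positions are from GENCODE M21.

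Members reaching 0.5 in any cluster, members called and up to 3 called genes per list and direction were named by rule, and values of other members were chosen after they were seen. Members and lists were chosen with earlier results of these data known. Alternatives covered the pseudocount, both thresholds, background subtraction, centring, genes listed at 0, small clusters and cell mix.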

Additional observations from a re-analysis of the deposited data

How the results depend on the processing

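Of the 13 member calls in clusters of all cells, 1 was left with a pseudocount of 1 (Ltb in cluster 6), 0 with a higher value of at least 2, 6 with a difference of at least 2 and 5 after background subtraction (Fas in clusters 0 and 10, Tnfsf13 in 0, Tnfsf12 in 5 and Tnfsf13b in 10); a higher value of at least 0.1 gave 36, and including small clusters gave 25. With a pseudocount of 0.01 there were 15, after centring 12. The subset count of 1 became 4 with a pseudocount of 0.01, 0 with a pseudocount of 1, 9 with a higher value of at least 0.1, 0 with one of at least 2, 0 with a difference of at least 2 and 6 in all clusters. The 13 pathway calls became 0 with a pseudocount of 1, 34 with a higher value of at least 0.1, 0 with one of at least 2, 3 with a difference of at least 2 and 40 in all clusters. After subtraction the pathway count was 15, of which 6 were higher and 9 lower, against 9 and 4 before. The 3 whole-library calls became 1 at the mock cell mix and 0 with equal weights. Ltb in cluster 7 went from 1.23 to -1.41 after subtraction, where its ligated value lay below the background and was set to 0. The 15 members reaching 0.5 were 17 in the ligated library alone and 15 in the mock library alone, and 12 of the 15 had the same highest cluster in the mock library. Other thresholds were not run for the members reaching 0.5 or for the whole-library calls. For the changed pseudocounts and thresholds, subtraction, centring and added small clusters, the share of all genes called was not computed. The counts of calls at those settings therefore have no comparison. No paired analysis was possible because each condition has 1 library and no test was run, and for the same reason no library could be left out. Members far below 0.5 rest on few UMIs, and differences in them could not be judged at this depth.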
